A study of Mus musculus with 4 samples.

Results

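The 10 genes described here regulate or mark cartilage, the joint and early bone: Sox9, Sox5, Sox6, Gdf5, Col2a1, Acan, Matn1, Runx2, Runx3 and Sp7. They are 10 of the 22225 protein-coding genes of the GENCODE M1 annotation and were chosen by name. ATAC-seq, which reads open chromatin from where the Tn5 transposase cuts, had been run on forelimb and hindlimb cells of E11.5 mouse embryos of the strain c57bl6.J X 129S6.sv. Of the 4 libraries, 2 came from embryos with the genotype Mutant (Stop Cassette Insertion), which the sample titles call 3xpA, and 2 from Wild Type embryos. The series concerns the Maenli long non-coding RNA and engrailed-1. The labels used here name neither the site of the cassette, nor whether embryos were pooled, nor the number of embryos per library, and forelimbs and hindlimbs entered the same libraries. One list of peak summits per library was available, with a score for each summit.

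For each gene, summits within 1 kb of any annotated start were collected, together with all summits in its locus, defined as the gene body and 100 kb on either side, or 1 Mb on either side for Sox9. Scores depend on the depth and background of a library, so each was turned into a percentile within its own list, from the weakest summit (0) to the strongest (100). Unless stated otherwise, groups of 4 values follow the order stop cassette replicate 1, stop cassette replicate 2, wild-type replicate 1, wild-type replicate 2. The lists held 79083, 107827, 51701 and 68471 summits, and the depth in reads is unknown. The loci held 242, 352, 149 and 245 of these. The names inside the stop cassette lists carry the tags R1 and R2, whereas both wild-type lists carry R1 with a sub-number. The spread between wild-type libraries, and any p-value that rests on it, may therefore be technical.

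Cartilage of the limb starts as condensations of mesenchyme in which the transcription factor Sox9 is switched on. Sox9 then acts with the related factors Sox5 and Sox6 to turn on matrix genes such as Col2a1 (the chain of type II collagen) and Acan (the large proteoglycan aggrecan), while Gdf5, a BMP-family ligand, marks the future joints. Runx2 and Runx3 drive the later hypertrophy of cartilage cells, and Runx2 with Sp7 (osterix) commits cells to bone.

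A summit within 1 kb of a start was called for 7, 8, 6 and 7 of the 10 genes. Among all protein-coding genes the shares were 61.7%, 64.6%, 59.2% and 61.7%, so the count was near the background. Stop cassette libraries averaged 7.5 ± 0.707 genes and wild-type libraries 6.5 ± 0.707 (SD over 2 libraries each; p = 0.667 in a two-sided exact permutation test, where 2 against 2 libraries cannot give less than 0.33). The labels do not say that libraries of a genotype came from separate embryos, so p-values measure only the spread between these libraries. At an equal list length of 51701 summits the difference changed sign, with 4, 6, 6 and 6 genes. Sox9, Sox5, Sox6, Col2a1, Acan and Runx2 had a start summit in all 4 lists, which held for 57.7% of protein-coding genes. Runx3 had one in both replicate 2 lists, Gdf5 in stop cassette replicate 2 alone and Sp7 in stop cassette replicate 1 alone. Matn1 had none in any list, like 34.3% of protein-coding genes. Of the patterns that split the lists, both stop cassette libraries alone were found for 0 members (1.03% of genes), both wild-type libraries alone for 0 (0.054%) and the replicate 2 pair alone for 1, Runx3 (0.927%).

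The start summits of these genes ranked below most start summits, as did those of other limb genes. The median of the best percentile over the members with one was 54.4, 62.5, 46.6 and 48.5. Over all protein-coding genes with a start summit it was 90.0, 92.6, 85.5 and 88.6, with lower quartiles of 76.7, 83.2, 69.5 and 76.1. For 10 limb mesenchyme genes the medians were 47.7, 63.4, 51.4 and 69.4, and for 14 further matrix genes 61.8, 70.4, 59.7 and 65.7. The plot of start percentiles shows that replicate 2 of the stop cassette gave the highest value for each of the 6 genes called in all lists. That list was also the longest and had the highest median over all protein-coding genes. Away from starts it ranked highest in 62.2% of the 10627 regions of the series held by all lists. The matching share of genes was not computed, so the order is not particular to these 6 genes as far as shown.

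**Figure D1:**
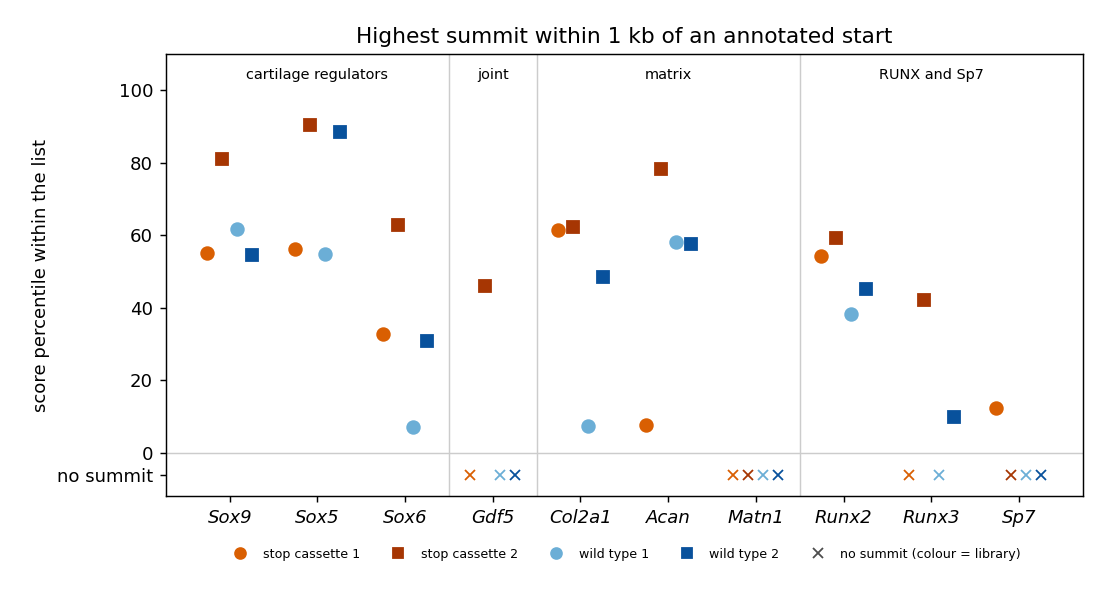
Score percentile (vertical axis, within each list) of the highest summit within 1 kb of an annotated start of each gene (horizontal axis), with 1 symbol per library and crosses where no summit was called. The 3 cartilage regulators have a symbol for every library, Matn1 has 4 crosses, and Sp7 has a single summit at the 12.4 percentile.

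Sox9 (ENSMUSG00000000567.4) lies on chromosome 11 from 112643538 to 112649074 on the plus strand of mm9. Its start summit ranked at the 55.0, 81.1, 61.7 and 54.5 percentiles, and the nearest summits were 56, 73, 61 and 145 bp from the start. Stop cassette replicate 2 stood above the other 3 lists, and the genotypes overlapped (exact permutation p = 0.667). No summit was called at the second annotated start, 2.504 kb downstream. By the smallest distance over the 4 percentiles among 12814 other genes called in all lists, the pattern at the Sox9 start was most like those of Nxnl2, Tnfrsf1a and Elovl6, at distances of 5.97, 6.44 and 7.39 percentile points.

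Sox9 stands in a region poor in genes, and its distant enhancers are known to be spread over it. Within 1 Mb the lists held 65, 95, 38 and 73 summits, or 0.0822% (95% Wilson interval 0.0645% to 0.105%), 0.0881% (0.0721% to 0.108%), 0.0735% (0.0536% to 0.101%) and 0.107% (0.0848% to 0.134%) of each list. These intervals cover counting error only. The genotype means were 0.0851 ± 0.00418% for the stop cassette and 0.0901 ± 0.0234% for wild type (SD, 2 libraries each; p = 1, exact permutation test), a difference smaller than the spread of the wild-type lists. Without wild-type replicate 2 the difference changed sign, to 0.0116 percentage points, and it did so under the stricter score threshold, to 0.0204. Over 1 kb from every annotated start there were 39, 66, 22 and 48 summits. Of these, 7, 24, 8 and 18 lay upstream of Sox9 and 32, 42, 14 and 30 downstream.

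Merged across lists, the Sox9 domain held 73 regions, of which 18 were in all 4 lists, or 24.7% against 32% of all regions of the series. Of the 18, 11 lay over 1 kb from any start, 4 upstream and 7 downstream of the gene, and 2 of them within 300 kb. The strongest by mean percentile sat at the edge of the window, 1003 kb downstream in an intron of Sdk2, at the 90.4, 94.2, 91.5 and 88.8 percentiles. The next 3 were nearer to Sox9 and are printed below because they are the strongest distal regions short of that edge. The region 383 kb downstream, in an intron of the non-coding gene 2610035D17Rik, ranked at the 70.9, 81.1, 65.4 and 90.1 percentiles. An intergenic region 369.6 kb upstream ranked at 62.7, 81.6, 70.6 and 81.5. An intergenic region 194.7 kb downstream ranked at 61.8, 80.1, 38.7 and 86.7. In each of these 3 regions both replicate 2 lists stood above both replicate 1 lists. That order was found in 42.1% of the 10627 distal regions of all lists in the series, and the 3 were picked for high mean percentiles.

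The sequences run 5′ to 3′ on the plus strand of mm9, 201 bases around the strongest summit, with capitals on the SOX words ACAAAG and ACAATG on either strand. Overlaps with other motifs were not removed.
Sox9 383 kb downstream (chr11:113026464-113026664): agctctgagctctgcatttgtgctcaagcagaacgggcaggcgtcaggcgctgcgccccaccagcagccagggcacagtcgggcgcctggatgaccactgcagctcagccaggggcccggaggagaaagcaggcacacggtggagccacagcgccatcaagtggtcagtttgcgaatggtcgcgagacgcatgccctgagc
Sox9 369.6 kb upstream (chr11:112273829-112274029): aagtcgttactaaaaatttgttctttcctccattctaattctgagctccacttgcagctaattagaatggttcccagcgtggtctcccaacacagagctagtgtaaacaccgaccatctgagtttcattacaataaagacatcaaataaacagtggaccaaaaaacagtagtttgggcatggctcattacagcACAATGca
Sox9 194.7 kb downstream (chr11:112838121-112838321): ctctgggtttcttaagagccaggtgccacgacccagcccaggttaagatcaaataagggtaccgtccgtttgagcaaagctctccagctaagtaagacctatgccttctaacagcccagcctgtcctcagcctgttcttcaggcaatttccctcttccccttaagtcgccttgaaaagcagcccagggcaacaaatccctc
A SOX word was found in the upstream sequence alone. It also holds the homeodomain word TAATTA.

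**Figure D2:**
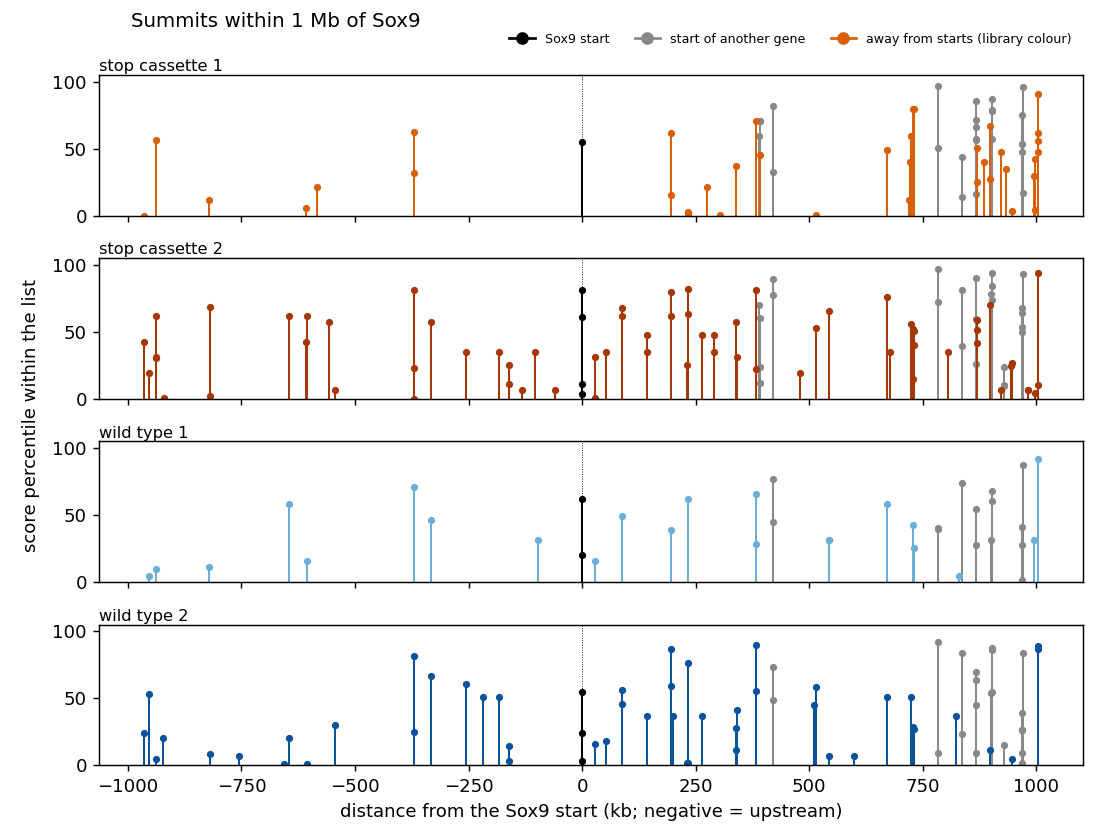
Summits within 1 Mb of Sox9 in each of the 4 lists, with distance from the Sox9 start in kb (horizontal axis) against score percentile within the list (vertical axis). Black stems mark the Sox9 start, grey stems the starts of other genes, and coloured stems summits away from starts, of which 39, 66, 22 and 48 were called in the panels from top to bottom.

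Sox5 (ENSMUSG00000041540.9, chromosome 6 from 143776945 to 144730497, minus strand) and Sox6 (ENSMUSG00000051910.7, chromosome 7 from 122614858 to 123182258, minus strand) are long genes with several annotated starts, and each start is a further chance of a summit. Of 4 start groups of Sox5, those at 0 and 572.4 kb from the most upstream start had summits in every list. The upstream group ranked at the 51.7, 72.6, 35.4 and 58.8 percentiles. The group at 572.4 kb, from which 4 of its 6 transcripts are protein-coding, ranked at 56.1, 90.4, 54.8 and 88.4, again with both replicate 2 lists above both replicate 1 lists. At 577.5 kb a summit was called in wild-type replicate 2 alone (12.2 percentile), and at 834.9 kb in none, although 4 protein-coding transcripts begin there.

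At Sox6 the start summits were weaker than at Sox9 or Sox5 in each list. The best percentiles were 32.7, 62.7, 7.19 and 30.9. Both stop cassette lists stood above both wild-type lists, with means of 47.7 ± 21.2 against 19.0 ± 16.7 (SD, 2 libraries each; p = 0.33, exact permutation test), but the values came from different starts. In stop cassette replicate 1 and wild-type replicate 1 the best summit was 824 and 951 bp from the start at 7.697 kb, while in the replicate 2 lists it was 87 and 78 bp from the start at 214.0 kb. A region 1697 bp upstream of the first start, outside the 1 kb limit, was held by all lists at the 69.0, 76.7, 70.4 and 59.8 percentiles. With a limit of 2 kb these values became those of Sox6. With 500 bp, only the replicate 2 lists had a summit at Sox6.

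Sox6 is also known for a role in red blood cells, so the blood markers are given beside it. Gata1 (74.5, 56.4, 10.4 and 26.0) and Hbb-b1 (92.2, 86.7, 72.8 and 20.7) had start percentiles higher in both stop cassette lists. So did 41.3% of the 12815 protein-coding genes called in all lists, a share that was 20.2% at equal list length. The blood markers were not examined at equal list length. Klf1 was at 84.8, 67.7 and 22.8 with no summit in wild-type replicate 2, and Hba-a1 and Ptprc had none in any list. So 3, 3, 3 and 2 of the 5 blood markers were called, against 61.7%, 64.6%, 59.2% and 61.7% of all protein-coding genes. The part of blood cells in the Sox6 values was not tested. In a mixed tissue, fewer cells with an open site and a less open site in each cell cannot be told apart.

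The bodies of Sox5 and Sox6 held most of their distal regions. The bodies also make up most of the loci, 954 of 1154 kb for Sox5 and 567 of 767 kb for Sox6. Sox5 had 42 merged regions in its locus, 11 of them in all lists and 9 of those away from starts. Sox6 also had 42, with 8 in all lists and 6 away from starts. The strongest distal region of Sox5 lay in its intron 517.5 kb from the most upstream start, at the 53.7, 84.2, 56.9 and 86.0 percentiles. That of Sox6 was intergenic, 585.1 kb from the most upstream start and thus past the 3′ end of the gene, at 63.2, 80.1, 55.8 and 79.8. The shares of the lists in the Sox5 locus were 0.0354%, 0.0519%, 0.0367% and 0.0555%, and in the Sox6 locus 0.0367%, 0.0519%, 0.0426% and 0.0526%. In both loci the replicate 2 lists were above the replicate 1 lists of either genotype. The values of the genotypes overlapped (p = 0.667 for each, exact permutation test). The Sox5 sequence is shown because it carries a SOX word, so the printed sequences overstate how often the word occurs. The strongest distal regions of Sox6, Matn1, Runx2, Runx3 and Sp7 hold no SOX word. Neither do the Sox9 regions 1003 and 670.8 kb downstream.
Sox5 intron, 517.5 kb (chr6:144212910-144213110): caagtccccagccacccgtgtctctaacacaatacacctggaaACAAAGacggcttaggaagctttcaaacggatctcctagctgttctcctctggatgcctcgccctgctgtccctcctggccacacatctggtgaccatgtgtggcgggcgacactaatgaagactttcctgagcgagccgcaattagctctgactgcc

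**Figure D3:**
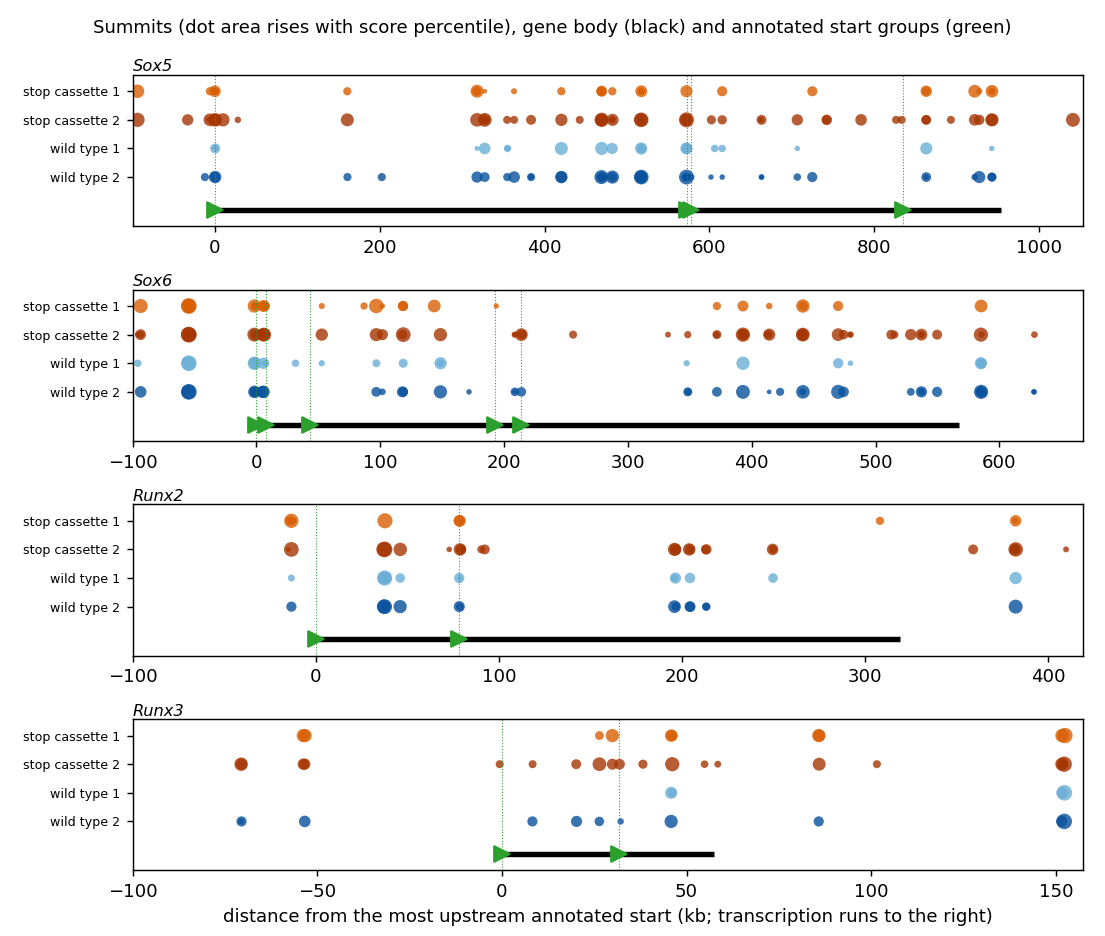
Summits at Sox5, Sox6, Runx2 and Runx3, with distance from the most upstream annotated start in kb (horizontal axis) and 1 row per library. Dot area rises with score percentile, black bars are gene bodies and green triangles annotated start groups, and no dot of any library lies at the upstream start of Runx2 while all 4 rows have dots at its start group 78.15 kb downstream.

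Gdf5 (ENSMUSG00000038259.3, chromosome 2 from 155766759 to 155771103, minus strand) had a start summit in stop cassette replicate 2 only, at the 45.9 percentile and 815 bp from the start. The nearest summits of the other lists were 10859, 10855 and 4106 bp away, in stop cassette replicate 1 and wild-type replicates 1 and 2. Its locus held 12 regions, 4 of them in all lists, and 3 of these 4 were starts of the neighbours Uqcc, Cep250 and 6430550D23Rik. The only distal region in all lists lay 82.18 kb downstream of Gdf5 in an intron of Uqcc, a stretch known to hold regulatory DNA of Gdf5, at the 69.3, 86.9, 66.6 and 50.7 percentiles. Both stop cassette lists ranked above both wild-type lists there, as they did for 36.4% of the 10627 distal regions of all lists in the series. This sequence also carries a SOX word.
Gdf5, intron of Uqcc (chr2:155688819-155689019): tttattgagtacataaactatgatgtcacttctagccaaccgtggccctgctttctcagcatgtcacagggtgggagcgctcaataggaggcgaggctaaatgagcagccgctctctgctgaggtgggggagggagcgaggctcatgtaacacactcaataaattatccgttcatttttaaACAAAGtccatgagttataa

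Col2a1 (ENSMUSG00000022483.9, chromosome 15 from 97806033 to 97835155, minus strand) was called at its main start in every list, with the nearest summits 52, 67, 13 and 51 bp away. There the percentiles were 56.0, 62.3, 7.40 and 48.5. Wild-type replicate 1 was far below the other 3 lists. Over all its starts both stop cassette lists were higher, with means of 61.9 ± 0.547 against 28.0 ± 29.1 (SD, 2 libraries each; p = 0.33, exact permutation test), a difference near the spread of the wild-type lists. The first intron of Col2a1 is known to hold an enhancer bound by Sox9. A region 2.28 kb downstream of the start, in an intron, was held by stop cassette replicates 1 and 2 and wild-type replicate 2, but only at the 14.8, 3.44 and 7.06 percentiles. A second one, 3.29 kb downstream, was in stop cassette replicate 1 alone at the 61.6 percentile. The strongest region inside the gene was further in, 11.65 kb from the start, and 2597 bp from the nearest annotated start. It ranked at the 80.02, 90.7, 67.8 and 90.1 percentiles, above the main start in each list. Every list had a summit within 1 bp of the strongest one, so the sequence is printed. It holds 0 SOX words.
Col2a1 intron, 11.65 kb (chr15:97823404-97823604): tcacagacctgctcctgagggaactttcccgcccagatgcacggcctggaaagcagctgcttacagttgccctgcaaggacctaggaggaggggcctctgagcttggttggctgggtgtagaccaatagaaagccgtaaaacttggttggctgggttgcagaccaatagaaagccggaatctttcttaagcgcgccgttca

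Acan (ENSMUSG00000030607.6, chromosome 7 from 86198369 to 86259985, plus strand) had start summits in all lists at the 7.55, 78.2, 58.1 and 57.7 percentiles. Stop cassette replicate 1 was the lowest and stop cassette replicate 2 the highest, so the spread within that genotype (SD 49.95) exceeded the difference between the means (42.9 and 57.9, exact permutation p = 1). The site lies in an intron of Gm16936, whose start is 272 bp from the strongest summit, so it cannot be given to Acan alone. The strongest distal region was intergenic, 62.96 kb upstream of Acan, at the 69.8, 85.9, 66.6 and 83.3 percentiles. It was above the Acan start in each list and holds a SOX word and 2 RUNX words (TGTGGT or TGCGGT on either strand, not marked).
Acan, 62.96 kb upstream (chr7:86135312-86135512): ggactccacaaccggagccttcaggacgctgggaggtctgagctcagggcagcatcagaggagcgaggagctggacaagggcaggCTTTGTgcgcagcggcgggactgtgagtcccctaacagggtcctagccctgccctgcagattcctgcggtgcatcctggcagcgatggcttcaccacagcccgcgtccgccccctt

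Matn1 (ENSMUSG00000040533.7, chromosome 4 from 130500300 to 130511390, plus strand), which encodes matrilin 1 of mature cartilage, was the member without a start summit. The nearest summits were 38014, 3127, 37953 and 37979 bp away. Inside the gene only stop cassette replicate 2 had summits, 2 in introns at the 47.8 and 19.7 percentiles. Its locus held 10 regions and 3 in all lists, all 3 upstream and over 37 kb from the start. The strongest of them, 65.69 kb upstream, ranked at 72.7, 83.7, 4.54 and 79.0, with wild-type replicate 1 near the bottom of its list.

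Runx2 (ENSMUSG00000039153.9 and ENSMUSG00000092206.1, chromosome 17 from 44632936 to 44951746, minus strand) has an upstream start group and one 78.15 kb downstream. The upstream start is known to give the isoform of bone-forming cells. No list had a summit within 1 kb of it, and the nearest were 12542, 13333, 13323 and 13298 bp away. All lists had a summit at the downstream group, at the 54.4, 59.3, 38.4 and 45.3 percentiles. These best summits lay 15, 68, 170 and 214 bp from a start, and the nearest summits of any rank 15, 17, 25 and 1 bp. At that group both stop cassette lists ranked above both wild-type lists, with means of 56.8 ± 3.45 against 41.8 ± 4.87 (SD, 2 libraries each). The difference was larger than either SD, and p = 0.33 in the exact permutation test. At equal list length the order was lost, at 30.2, 15.0, 38.4 and 27.5. The region nearest to the upstream start in all lists lay 13.33 kb before it and ranked at the 81.3, 87.1, 13.0 and 36.9 percentiles. It was higher in both stop cassette lists, as were 36.4% of the 10627 distal regions of all lists in the series. The strongest distal region was intergenic, 382.1 kb from the upstream start and past the 3′ end of the gene, at 49.1, 84.2, 58.1 and 77.4.

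Runx3 (ENSMUSG00000070691.4, chromosome 4 from 134676567 to 134733905, plus strand) is built in the same way. Its upstream start had a summit in stop cassette replicate 2 alone, at the 19.7 percentile and 597 bp away. Its downstream start group, 31.84 kb further in, had one in both replicate 2 lists, at 42.1 in the stop cassette list and 9.74 in the wild-type list, 9 and 132 bp from a start. An intronic region 46.13 kb from the upstream start was in all lists, at the 60.9, 81.1, 55.6 and 68.0 percentiles. It stood above the Runx3 starts in both lists that had a start summit.

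The 150 bases before the upstream start of Runx2, where no list had a summit, and before both start groups of Runx3 are given 5′ to 3′ in the direction of transcription (mm9). Capitals mark the RUNX words TGTGGT and TGCGGT on either strand.
Runx2 upstream start (chr17:44951747-44951896): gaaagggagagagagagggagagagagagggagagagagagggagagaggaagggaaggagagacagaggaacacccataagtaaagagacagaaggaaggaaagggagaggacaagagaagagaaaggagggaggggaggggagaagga
Runx3 upstream start (chr4:134676417-134676566): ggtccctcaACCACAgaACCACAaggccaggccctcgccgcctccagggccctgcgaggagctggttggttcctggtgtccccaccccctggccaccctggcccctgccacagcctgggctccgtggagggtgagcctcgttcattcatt
Runx3 downstream start (chr4:134708261-134708410): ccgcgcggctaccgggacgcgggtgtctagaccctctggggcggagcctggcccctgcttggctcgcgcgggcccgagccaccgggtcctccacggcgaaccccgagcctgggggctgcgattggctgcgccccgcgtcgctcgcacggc
The downstream start of Runx3 holds 1 GC box (GGGCGG on either strand) and the 2 upstream starts hold 0, while 35.5% of protein-coding genes have one in the 150 bases before their most upstream start. The upstream start of Runx3 holds 2 RUNX words, and 10.95% of genes have at least 1. GC content was 53.3% before the upstream Runx2 start and 68.0% and 78.0% before the starts of Runx3, with a median of 56.7% over all genes.

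Sp7 (ENSMUSG00000060284.5, chromosome 15 from 102187040 to 102197285, minus strand) had a single start summit, in stop cassette replicate 1 at the 12.4 percentile, 140 bp from a start. At equal list length no list had a start summit at Sp7. Its locus was the densest in genes of the 10, with 10 other protein-coding genes, and held 28 regions, 11 of them in all lists. A distal region 10.09 kb upstream of Sp7 ranked at the 91.6, 91.8, 83.5 and 79.1 percentiles. Both stop cassette lists stood above both wild-type lists there, as they did for 36.4% of the 10627 distal regions of all lists in the series. The reverse order was found for 2.75%. In 201 bases the GC content of the Sp7 region was 77.6%.

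By role, the 3 cartilage regulators and 2 of 3 matrix genes were called at a start in all lists. Of Runx2, Runx3 and Sp7, 2, 2, 1 and 2 were called. Since 57.7% of protein-coding genes were called in all lists, groups of 3 are too small to be told from that share. Sox6 lost its start summit in stop cassette replicate 1 at equal list length, and in both replicate 1 lists with a limit of 500 bp. The regulators also have several annotated starts each. Over 1 kb from starts, the regulator loci held 2.11, 3.998, 1.43 and 2.85 summits per 100 kb. The matrix loci held 2.85, 4.13, 0.855 and 1.99, and the loci of Runx2, Runx3 and Sp7 3.55, 5.17, 1.62 and 3.14. The last group was above the regulators in all 4 lists, but Sp7 alone had 9.51, 7.61, 3.33 and 6.66. Runx2 and Runx3 without Sp7 had 1.93, 4.51, 1.16 and 2.19, below the regulators in 3 of 4 lists. The matrix genes were above the regulators in both stop cassette lists and below in both wild-type lists. In stop cassette replicate 2 the gap was small, 4.13 against 3.998, from 29 and 157 summits. How often other sets of genes show this order was not computed, so it is not read as a genotype difference. Genes of a role are not replicates, and no test was made between roles.

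Other genes of cartilage and bone were taken from wider lists, also chosen with earlier results known. Of 10 further regulators, 7 had a start summit in all lists and 0 in no list, among them Sox8 (75.3, 76.9, 54.2 and 91.3), a relative of Sox9, and Nkx3-2 (25.7, 78.2, 31.7 and 44.2). Of 14 further matrix genes, 6 were called in all lists and 3 in none. Col11a1, a fibrillar collagen chain that assembles with type II collagen, was the highest of these at the 88.6, 97.7, 93.4 and 98.1 percentiles. Of 15 genes of hypertrophy and bone, 3 were called in all lists, Pth1r and Mef2c among them, and 9 in none, including Col10a1, the collagen of hypertrophic cartilage, and the osteocalcin gene Bglap. These counts stand against 57.7% and 34.3% of protein-coding genes.

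Across the 10 loci, summits made up 0.306% (95% Wilson interval 0.270% to 0.347%), 0.326% (0.294% to 0.362%), 0.288% (0.246% to 0.338%) and 0.358% (0.316% to 0.405%) of the lists. Stop cassette libraries averaged 0.316 ± 0.0145% and wild-type libraries 0.323 ± 0.0492% (SD, 2 libraries each; p = 1, exact permutation test). The difference of -0.00678 percentage points was smaller than either SD and changed sign when stop cassette replicate 1 (0.00344) or wild-type replicate 2 (0.028) was left out, under the stricter score threshold (0.0422) and with flanks of 200 kb (0.0304). Locus by locus, the smallest of 10 exact permutation p-values was 0.667, and 1 after Benjamini-Hochberg adjustment. The replicate 2 lists were above both replicate 1 lists in 5 of 10 loci (Sox9, Sox5, Sox6, Matn1 and Runx3) and below in 2 (Gdf5 and Col2a1). Over all 22225 protein-coding genes, each with 100 kb on either side, these orders were found for 11.3% and 27.3%. The Sox9 locus has 1 Mb on either side instead, so it is not set against a like window. The genotypes were apart at 0 of the 10 loci, where 12.6% of genes had both stop cassette lists higher and 17.8% lower.

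The summits of the loci had median percentiles of 46.7, 44.3, 40.8 and 36.9. Both stop cassette lists were higher, with means of 45.5 ± 1.73 against 38.9 ± 2.76 (SD, 2 libraries each). The difference was 6.59 percentile points (p = 0.33, exact permutation test). Equal list length brought it to 1.82, and the stricter threshold to -1.02. For single starts, 3 of the 6 genes called in all lists (Sox6, Col2a1 and Runx2) had percentiles higher in both stop cassette lists and 0 lower. The background was 41.3% higher and 4.34% lower over 12815 genes. At equal list length 4 members were called in all lists and 0 of them had the genotypes apart, where the background was 20.2% higher and 19.9% lower.

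The 267 merged regions of the loci were compared with all 74669. All lists held 71 (26.6%, against 32% of all regions). The stop cassette pair alone held 17 (6.37%, against 10%), and the wild-type pair alone 0, against 0.313%. Both replicate 2 lists alone held 27 (10.1%, against 6.57%), and stop cassette replicate 2 alone held 58 (21.7%, against 22.1%). Within the loci, the share of regions held in common by a pair of lists was highest for the replicate 2 lists of the 2 genotypes (0.578), above the wild-type pair (0.503) and the stop cassette pair (0.478). The replicate 2 lists held 219 (stop cassette) and 155 (wild type) regions there, and the replicate 1 lists 146 and 96. These shares depend on such counts. They were not computed over the whole series, so they cannot be read as a trait of these loci. With lists of equal length the loci held 174 regions. The stop cassette pair alone then held 9 (5.17%, against 5.22% of all regions) and the wild-type pair alone 3 (1.72%, against 2.23%).

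**Figure D4:**
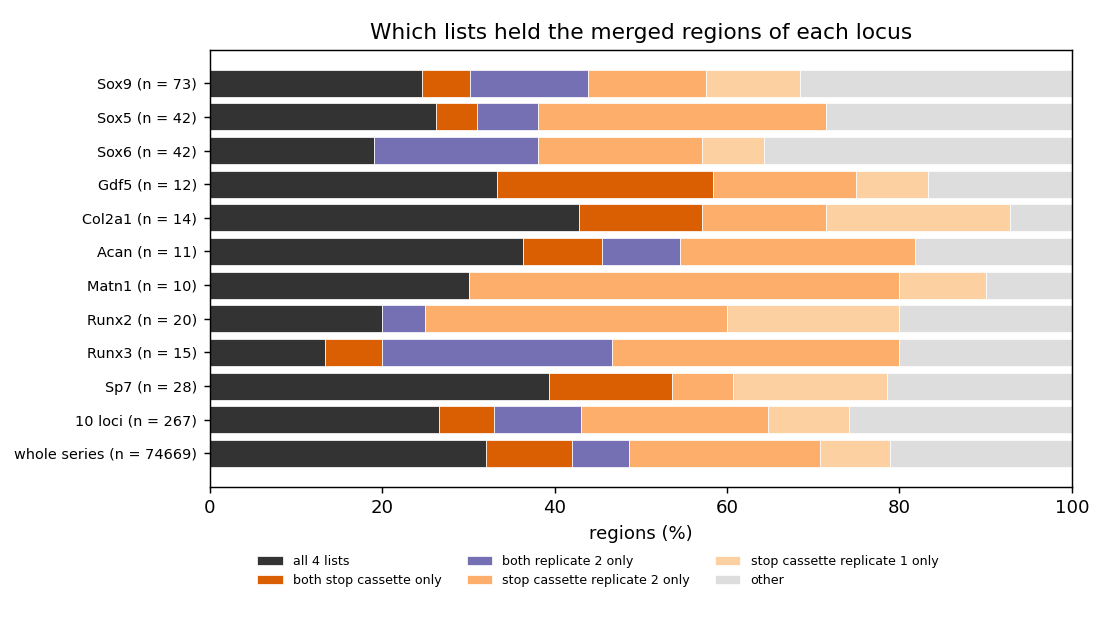
Percent of merged regions (horizontal axis) by which lists held them, for each locus, the 10 loci together and the whole series. Regions held by all 4 lists range from 13.3% at Runx3 to 42.9% at Col2a1, and the bar of the 10 loci has 26.6% in that band against 32% in the whole series, 6.37% against 10% for both stop cassette lists only and 10.1% against 6.57% for both replicate 2 lists only.

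The 3 stop cassette regions of the highest rank lay at Sox5, Sp7 and Sox9. The first was intergenic on chromosome 6 from 144824287 to 144824813, 94.04 kb upstream of the first Sox5 start, with percentiles of 71.7 and 80.5 in stop cassette replicates 1 and 2. The nearest wild-type summits were 26044 and 26037 bp away. At Sp7 it was a region at the start of the neighbour Prr13, on chromosome 15 from 102290197 to 102290707, at 82.8 and 63.9, with wild-type summits 1032 and 945 bp away. At Sox9 it lay at a start of 2610035D17Rik, on chromosome 11 from 113033709 to 113034731, at 71.0 and 69.8, and the nearest wild-type summits were 7658 and 7642 bp away. With lists of equal length all 3 were still in both stop cassette lists. That cut only removes the weakest summits, so no wild-type summit could appear there, and the regions had been picked for high percentiles. It is therefore no check on the genotype pattern. The choice of the 3 regions by rank leaves no test to give.

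Of the 71 regions held by all lists, 40 lay over 1 kb from every start. Their median percentiles were 58.6, 77.9, 47.6 and 60.4, and those of the 10627 such regions of the series 62.0, 79.7, 50.4 and 64.6. In 14 of 40 (35.0%) both stop cassette lists ranked higher, against 36.4% of all, and in 1 (2.5%) lower, against 2.75%. In 19 of 40 (47.5%) both replicate 2 lists ranked higher, against 42.1%. Stop cassette replicate 2 gave the highest value in 25 (62.5%, against 62.2%) and wild-type replicate 1 the lowest in 18 (45%, against 48.6%). A SOX word stood in 12 of the 40 (30%) within 201 bases around the strongest summit, and in 21.0% of all 10627. RUNX words were in 5 (12.5%, against 18.4%) and TAATTA in 3 (7.5%, against 5.41%), on either strand. Median GC content was 55.0% in the 40 and 52.7% in all. These shares describe letters and not bound sites.

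The labelled tissue was checked on start summits of marker genes. Of 10 genes of limb mesenchyme, 9, 9, 7 and 9 were called. Prrx1, Twist1, Hand2 and Lhx2 were among those called in all lists, and Tbx5 was called in none. Over all protein-coding genes the shares called were 61.7%, 64.6%, 59.2% and 61.7%, so 7 of 10 in wild-type replicate 1 was near the background. Lists of 5 or 10 genes are too short to settle the make-up of the tissue. Muscle precursor genes were called for 1, 3, 1 and 1 of 5, endothelial genes for 1, 2, 1 and 1 of 5 and surface ectoderm genes for 2, 3, 2 and 2 of 5. Sox5, Sox6 and Sox9 are also used in neural crest and its glia. Of the genes of that lineage, Sox10 and Foxd3 had no start summit in any list, and Erbb3 had one in all. None of 5 liver genes was called in any list.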

How the data were processed

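The authors deposited 1 list of summits, each 1 bp wide, per library, with a score that reads as −log10 of a q-value: its lowest value, 1.30 to 1.31, corresponds to 0.05. Bowtie2 2.2.6, Picard and mm9 are named in the submitters' processing notes, while each peak's name records that duplicate and mitochondrial reads were removed at a mapping quality of 30. The peak caller, its version, any Tn5 shift and any control track are not given in the sources used here. GENCODE M1 on NCBIM37 shares the build of the lists: over 21 chromosomes, 0 summits passed a chromosome end.

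Summits of the 4 lists were extended by 250 bp on either side and merged into regions. With 2 libraries per genotype, two-sided exact permutation tests run over 6 assignments. Wilson intervals (95%) cover counting error. Code was tested on simulated lists, where it recovered 200 of 200 planted regions of each pattern. Those lists held only planted summits at isolated starts, without background summits or missed calls. They check the code and not the pattern calls in these data. Python 3.11.15, pandas 2.3.3, scipy 1.17.1, pysam 0.24.0 and samtools 1.23.1 were used.

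The members and lists were chosen with earlier results of these data known. The named-region rule took, per locus, the distal region with the highest mean percentile in all lists (5 for Sox9), every wild-type-only region and the 3 highest stop-cassette-only regions. Regions inside Col2a1, Matn1 and Runx3, the region 1697 bp before Sox6, that 13.33 kb before Runx2 and the printed RUNX starts were chosen after their values were seen. RefSeq promoters matched 6 of 10 members but are on another build and were not used. Some items of the marker lists and 1 sequence are not reported here.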

Additional observations from a re-analysis of the deposited data

How the results depend on the processing

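With 2 libraries per genotype no exact permutation test can fall below 0.33, so keeping a direction is no evidence for a difference. The alternatives were equal list length (51701 summits, fewer in the 3 longer lists by construction), a stricter score threshold (above 5.83 in all lists), other distances, flanks and extensions, and leaving out each library. Equal list length turned the difference in members with a start summit to -1, and gave 9 stop-cassette-only and 3 wild-type-only regions of 174 (5.17% and 1.72%, against 5.22% and 2.23% of all regions). The stricter threshold turned the difference in the share of summits in the loci to 0.0422 percentage points, that in the Sox9 domain to 0.0204 and that in the median percentile to -1.02, and left 32 regions in all lists. Flanks of 200 kb turned the share difference to 0.0304 and gave 47 stop-cassette-only regions, against 10 with 50 kb. An extension of 100 bp gave 33 stop-cassette-only regions and 1 wild-type-only region, as narrower intervals merge less. Apart from equal list length, these alternatives have counts only, without the number of regions in the loci or the share over all regions. The counts therefore cannot be read as a genotype difference in these loci. At the main setting the stop cassette pair alone held 6.37% of the regions of the loci and 10% of all regions.

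Leaving out 1 library gave differences of 0.5 to 1.5 members, -0.0416 to 0.028 and -0.0215 to 0.0116 percentage points for the loci and the Sox9 domain, and 4.64 to 8.54 percentile points. The remaining list then stands for its genotype, so counts rise by construction: 72 to 97 regions in all lists, 21 to 78 stop-cassette-only (78 and 44 without stop cassette replicate 1 or 2, 43 if wild-type replicate 2 was left out) and 0 to 16 wild-type-only (16 and 5 without wild-type replicate 1 or 2, 13 if stop cassette replicate 2 was left out). With the replicate numbers as pairs (a replicate block, exact sign-flip test, smallest p = 0.5), the differences stayed at 1 member (p = 0.5), -0.00678 (p = 1) and -0.00491 percentage points (p = 1) and 6.59 percentile points (p = 0.5). The labels do not say that a number marks a shared litter or day, and over 10627 distal regions same-numbered libraries deviated together with r = 0.134.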

Other observations

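The density of regions held by all 4 lists differed widely between the loci. In the gene body with 100 kb on either side (1 Mb applies to Sox9 elsewhere, not here) Sp7 had 5.23 such regions per 100 kb, higher than 94.3% of 22225 protein-coding genes with ties counted by 0.5, and Col2a1 had 2.62 (71.2 percentile). These densities include starts of neighbouring genes. Of the 11 regions in all lists at Sp7, 4 lay over 1 kb from every start, and of the 6 at Col2a1, 2 did. Sox9 had 0.487 (19.99 percentile), Runx2 0.771 (25.8) and Runx3 0.777 (25.9), below the median of 1.65. Within 1 Mb of the gene body, Sox9 had 18 and Runx3 45, where the median gene had 27.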
